A study of Homo sapiens with 12 samples.

Results

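The IgLON genes encode a small family of neural cell adhesion molecules: OPCML (opioid-binding cell adhesion molecule), NTM (neurotrimin), LSAMP (limbic system-associated membrane protein), NEGR1 (neuronal growth regulator 1, also called kilon) and IGLON5. These 5 genes, of 19974 protein-coding genes, were followed through the lamina-associated domains (LADs) of naive and primed H9 cells, a human embryonic stem cell line. LADs are the stretches of chromosome that touch the nuclear lamina, and they were mapped by pA-DamID. The method uses a lamin B1 (LMNB1) antibody to bring a protein A-Dam methylase fusion to the lamina, so that adenines of GATC sites close by are methylated and can be found by sequencing. Naive cells were kept in RSeT and primed cells in mTeSR, with no other treatment, and each state had 3 LMNB1 libraries and 3 Dam-only control libraries, 12 in all. The labels do not say whether the 3 came from separate cultures of this single line. The files used here give 1 list of LAD intervals per state, with no signal, score or read depth, so differences between the states are values of these lists with no replicate error, and none was tested. The lists carry no expression values, so the state labels could not be checked against marker expression.

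IgLON proteins sit on the surface of neurons through a glycosylphosphatidylinositol (GPI) anchor and carry immunoglobulin domains on the outside of the cell. They bind to themselves and to each other, and they act in neurite outgrowth, in the choice of synaptic partners and in the organisation of neuronal circuits. OPCML has also been studied as a tumour suppressor, NEGR1 has been linked to body weight, and IGLON5 is the target of autoantibodies in a neurological disease. Long genes of neurons that are silent in other cells are often found at the lamina, where chromatin tends to be repressed.

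The family was chosen by its covered shares, because OPCML and NTM lay in naive LADs only. These shares are therefore a description, and nothing is supported with them. Here a gene counts as lying in a LAD if 50% or more of its body, from first to last annotated base (RefSeq, GRCh38.p14, the primary assembly of hg38), was covered. The member nearest to this limit was OPCML at 63.1%, and the next below was IGLON5 at 0%. Of the 5 genes, 2 lay in naive LADs only, none (0) in the reverse, 2 in LADs of both states and 1 in neither. Of all protein-coding genes, 3.44% lay in LADs of the naive list alone, 1.89% of the primed list alone, 15.4% of both and 79.3% of neither. Because 4 IgLON genes are longer than 300 kb, the 771 protein-coding genes of 300 kb or longer are the closer background: 9.6% of these lay in LADs of the naive list alone, 2.08% of the primed list alone, 50.8% of both and 37.5% of neither. With 90% of the body required, 1 member, NTM, remained in naive LADs only (2.4% of all protein-coding genes) and 2 were in neither (83%). OPCML and NTM are neighbours on chromosome 11 and count as 1 locus.

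The start regions of the family are shown because OPCML and NTM each have several annotated starts. The starts of OPCML differed in the naive LADs, and those of NTM did not. Each sequence runs 5′ to 3′ from 250 bases before to 50 bases after a start (RefSeq, GRCh38.p14). Capitals mark the dinucleotide CG, where DNA methylation can occur, and the sequence GATC, the target of Dam. Both read the same on either strand.
OPCML upstream start, chr11:133532452-133532751, minus strand: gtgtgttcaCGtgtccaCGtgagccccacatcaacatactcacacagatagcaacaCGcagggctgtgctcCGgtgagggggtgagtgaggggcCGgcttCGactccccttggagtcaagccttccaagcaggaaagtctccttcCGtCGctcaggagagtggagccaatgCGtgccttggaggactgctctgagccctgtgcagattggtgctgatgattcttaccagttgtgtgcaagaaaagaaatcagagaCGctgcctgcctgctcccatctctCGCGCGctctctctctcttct
OPCML internal start, chr11:132943787-132944086, minus strand: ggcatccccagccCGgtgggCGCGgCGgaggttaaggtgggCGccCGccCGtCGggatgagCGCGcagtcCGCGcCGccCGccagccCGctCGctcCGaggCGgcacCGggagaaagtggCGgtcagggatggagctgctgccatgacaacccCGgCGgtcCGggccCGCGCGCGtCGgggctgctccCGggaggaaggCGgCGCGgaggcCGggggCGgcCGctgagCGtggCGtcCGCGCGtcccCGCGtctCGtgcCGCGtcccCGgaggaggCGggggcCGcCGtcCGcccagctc
NTM start 1, chr11:131370365-131370664, plus strand: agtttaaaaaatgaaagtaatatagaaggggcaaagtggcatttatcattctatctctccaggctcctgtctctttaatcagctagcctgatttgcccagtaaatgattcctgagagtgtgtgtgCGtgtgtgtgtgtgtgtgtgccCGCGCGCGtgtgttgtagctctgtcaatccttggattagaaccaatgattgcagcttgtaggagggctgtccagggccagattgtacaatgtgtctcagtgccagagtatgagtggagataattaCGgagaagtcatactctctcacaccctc
NTM start 4, chr11:131911086-131911385, plus strand: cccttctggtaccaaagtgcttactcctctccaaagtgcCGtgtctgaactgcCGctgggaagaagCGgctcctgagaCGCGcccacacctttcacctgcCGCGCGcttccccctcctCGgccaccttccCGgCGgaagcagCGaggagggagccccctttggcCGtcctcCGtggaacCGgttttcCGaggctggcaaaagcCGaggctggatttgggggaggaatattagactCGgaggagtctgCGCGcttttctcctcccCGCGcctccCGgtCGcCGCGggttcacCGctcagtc
NTM start 5, chr11:132211526-132211825, plus strand: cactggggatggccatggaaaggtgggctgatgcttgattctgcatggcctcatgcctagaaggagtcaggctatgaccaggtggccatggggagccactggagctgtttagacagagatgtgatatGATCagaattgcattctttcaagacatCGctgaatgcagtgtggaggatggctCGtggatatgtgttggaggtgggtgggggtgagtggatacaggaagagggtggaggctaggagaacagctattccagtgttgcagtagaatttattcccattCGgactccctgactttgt
LSAMP start, chr3:116445438-116445737, minus strand: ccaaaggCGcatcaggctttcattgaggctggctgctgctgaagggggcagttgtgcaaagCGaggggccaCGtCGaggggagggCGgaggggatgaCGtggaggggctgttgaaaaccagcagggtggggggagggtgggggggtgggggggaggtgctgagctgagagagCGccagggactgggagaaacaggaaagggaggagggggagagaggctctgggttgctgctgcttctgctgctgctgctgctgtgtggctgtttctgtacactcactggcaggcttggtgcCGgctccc
IGLON5 start, chr19:51311394-51311693, plus strand: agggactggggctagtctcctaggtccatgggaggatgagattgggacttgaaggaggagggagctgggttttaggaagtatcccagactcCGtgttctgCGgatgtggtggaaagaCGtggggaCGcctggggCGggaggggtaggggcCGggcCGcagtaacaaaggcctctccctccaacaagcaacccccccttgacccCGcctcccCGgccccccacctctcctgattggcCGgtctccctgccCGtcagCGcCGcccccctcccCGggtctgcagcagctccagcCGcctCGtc

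Of the 5 members, 4 had entries in the promoter table used, with 9 starts in all. NEGR1 had none. GATC was found in 1 of the 9, start 5 of NTM, counted in the direction of transcription, against 41.8% of the 34789 promoters of 300 bases in the table. The internal OPCML start held 50 CG dinucleotides and had a GC content of 80.0%. The upstream OPCML start held 13 CG, the 5 NTM starts 6, 9, 6, 27 and 3, the LSAMP start 8 and the IGLON5 start 16. The median over the table was 14 (quartiles 4 and 28). A match in these letters is a description of the window only.

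NTM, which encodes neurotrimin, was almost wholly covered in naive cells and not at all in primed cells. Its body (chromosome 11, 131370615 to 132336822) spans 966 kb, of which 95.9% was in naive LADs and 0% in primed LADs. Of the 97 windows of 10 kb that the body touches, 93 were called in naive and 0 in primed. The naive cover came as 3 LADs of 320, 310 and 380 kb, parted by a gap of 30 kb (131670001 to 131700000) and a gap of 10 kb (132010001 to 132020000). This gave 4 naive LAD edges inside the body, or 4.14 per Mb. All 5 annotated starts of NTM lay in naive LAD windows and none in a primed one. Start 1 was 20.6 kb from the nearest naive edge, and the other starts were 84.4 to 188 kb inside. The 7 shorter genes inside the body, among them the antisense RNAs NTM-AS1, NTM-AS2 and NTM-AS3, were each covered at 100% in naive and 0% in primed.

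OPCML was divided in naive cells, with one part of the gene inside a long LAD and the other largely outside. Its body (chromosome 11, 132414981 to 133532501) spans 1.12 Mb and had 63.1% of its bases in naive and 0% in primed LADs. Of its 113 windows, 71 were called in naive and 0 in primed. A single naive LAD of 620 kb (132410001 to 133030000) covered the 3′ part of the gene without a gap. Beyond that LAD, over the 503 kb (502.5 kb before rounding) towards the upstream start, 17.9% was covered, by 9 of 51 windows in 7 scattered LADs of 10 to 30 kb. The body held 15 naive LAD edges, or 13.4 per Mb, and 0 primed ones.

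The 2 annotated starts of OPCML fell on opposite sides of this border in naive cells. The internal start, at 132943836, was in a naive LAD, 86.2 kb from its edge, and all of the 100 kb around it was covered. The upstream start, at 133532501, was outside, 37.5 kb from the nearest naive LAD, and 10% of the 100 kb around it was covered. Between the 3′ end and the internal start the gene was covered at 100%, and between the internal and the upstream start at 29.9%. In primed cells both starts were over 3 Mb (3304 and 3893 kb) from any LAD. The CG-dense sequence printed above for the internal start is thus the one inside the naive LAD. Of the protein-coding starts in naive LAD windows, which had a median of 11 CG, 33 starts (0.804%) held as many CG as it or more. The share was alike for starts in primed LAD windows, at 31 starts (0.791%). Protein-coding starts outside naive LAD windows had a median of 22 CG. Of 377 protein-coding genes with starts at least 100 kb apart, 28 (7.43%) had, like OPCML, some but not all starts in naive LAD windows and none in primed ones. A further 6 genes (1.59%) had, like NTM, all starts in naive and none in primed LAD windows. Of the 5 shorter genes inside OPCML, a pseudogene and the long non-coding RNA LOC105369580, both within the covered 3′ part, were at 100% in naive. In the upstream part, the long non-coding RNA LOC124902796 was at 35.8%, and OPCML-IT1 and a small nucleolar RNA were at 0%.

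**Figure D1:**
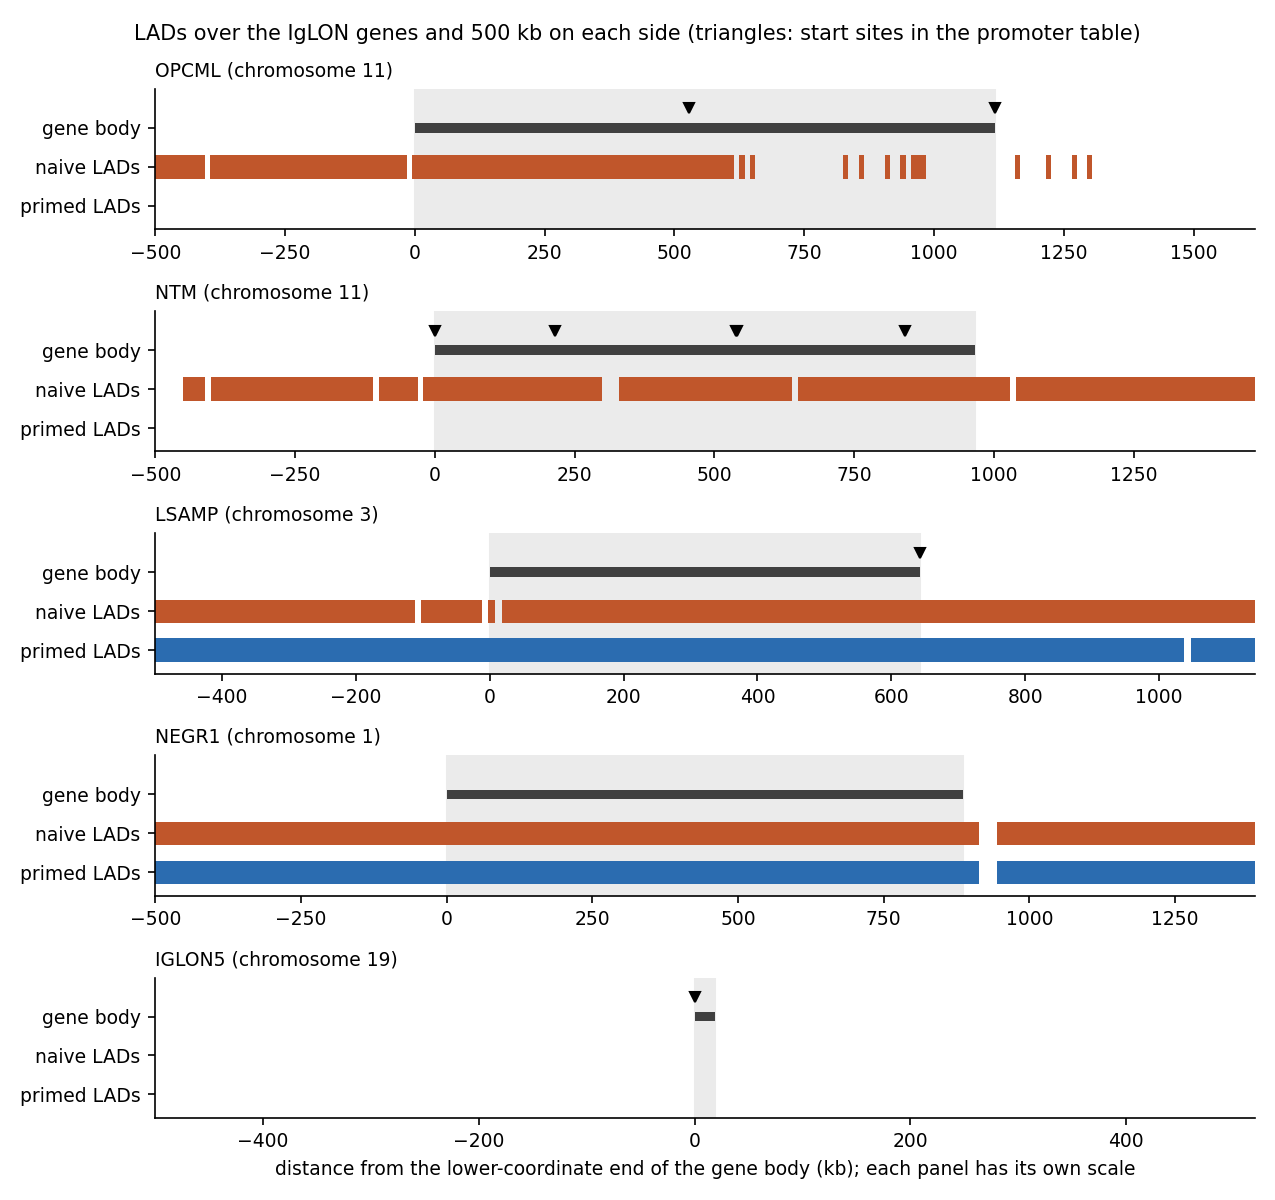
LADs over each IgLON gene and 500 kb on either side. The x axis is the distance in kb from the lower-coordinate end of the body; black bars are gene bodies, orange bars naive LADs, blue bars primed LADs and triangles annotated starts (no start of NEGR1 was in the table used). Naive LADs run across NTM and over the 3′ part of OPCML where no primed LAD was called, both lists cover LSAMP and NEGR1, and neither has a LAD near IGLON5.

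LSAMP, which guides the wiring of limbic circuits, lay in LADs of both states. Its body (chromosome 3, 115802374 to 116445487) spans 643 kb, of which naive LADs held 98.4% and primed LADs 100%. The 1.55 points between the states came from a single window (115810001 to 115820000) at the 3′ end of the gene that the naive list leaves out. This gap separated a naive LAD of 10 kb from one of 2.48 Mb, giving 2 naive edges in the body and 0 primed ones. In primed cells the whole body lay in a LAD of 2.46 Mb. The annotated start was inside LADs in both states, 625 kb from the nearest naive edge and 395 kb (394.5 kb before rounding) from the nearest primed edge. All 8 shorter genes inside LSAMP, LSAMP-AS1 among them, were at 100% in both states.

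NEGR1, which takes part in neurite growth, was covered alike in both lists, window by window. Its body (chromosome 1, 71395943 to 72282539) spans 887 kb and was covered at 100% in both states with no edge inside. The LAD that held it ended at the same base in both lists (72310000) and differed by 1 window at its other end, being 2.05 Mb long in naive and 2.06 Mb in primed. A gap of 30 kb (72310001 to 72340000) followed it in both. Over the body and 500 kb on either side, 190 of 190 windows had the same call in both states.

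IGLON5 stood apart in size and position. It spans 19.2 kb on chromosome 19 (51311644 to 51330891), touches 3 windows and was free of LADs (0%) in both states. Chromosome 19 held 5 naive and 9 primed LADs, and the nearest one to IGLON5 was 4.32 Mb away in naive and 2.65 Mb in primed. Its 41 protein-coding neighbours within 500 kb, mostly kallikrein (KLK) and SIGLEC genes, were in LADs of neither state.

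The surroundings went with the gene bodies. In the 1 Mb made up of 500 kb on each side, the naive LAD share was 91.1% around NTM, 52.0% around OPCML, 98.0% around LSAMP, 97.0% around NEGR1 and 0% around IGLON5. The primed share was 0% around NTM and OPCML, 99.0% around LSAMP, 97.0% around NEGR1 and 0% around IGLON5. The median of genes of 300 kb or longer was 61.0% in naive and 50% in primed. The 52.0% around OPCML joined 96.0% on the side of NTM and 8.00% on the upstream side. NTM had 84.1% on its upstream side and 98.0% on the side of OPCML. The surroundings of NTM and OPCML overlap each other's bodies, so these values are not independent. Apart from each other, their protein-coding neighbours within 500 kb were SNX19, a sorting nexin gene, SPATA19, a sperm mitochondrial gene, and IGSF9B, an immunoglobulin superfamily adhesion gene. They were covered at 0% in both states. GAP43, the growth cone protein gene next to LSAMP, had 89.8% of its body in naive and 100% in primed LADs. PTGER3, a prostaglandin receptor gene, and ZRANB2, a splicing factor gene, both near NEGR1, were at 100% in both.

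**Figure D2:**
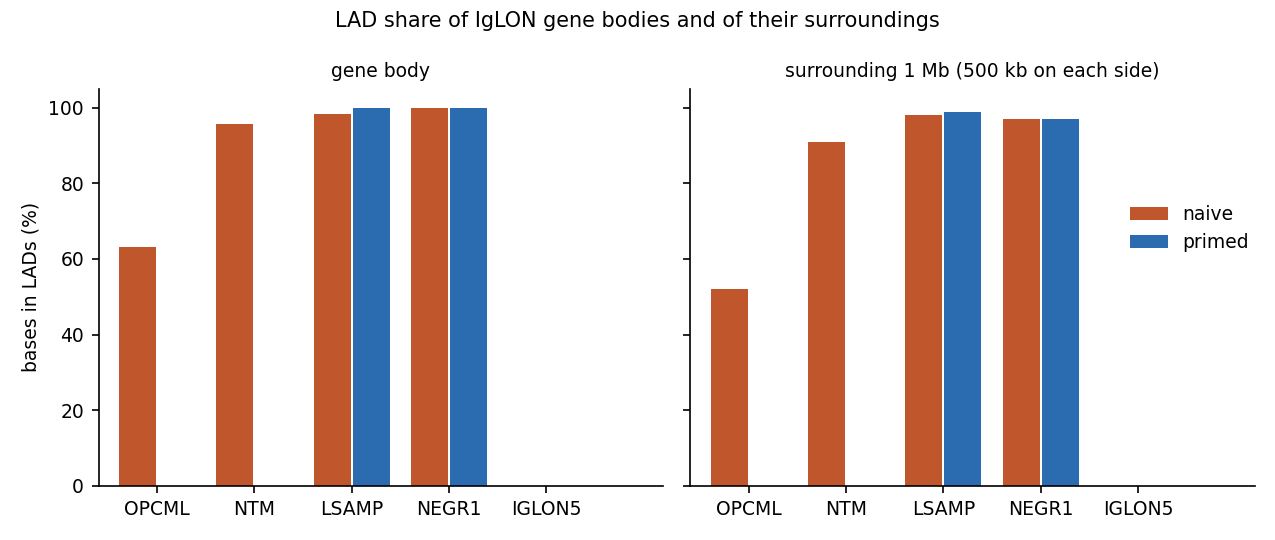
Share of bases in LADs (percent, y axis) in the gene bodies (left) and in the 500 kb on each side of them (right), for naive (orange) and primed (blue); each bar is the value of 1 list and has no error. OPCML and NTM have naive bars only, LSAMP and NEGR1 are at 97.0% or more in all 8 bars, and IGLON5 is at 0%.

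The members differed in how finely the naive list was cut. Genes of 300 kb or longer had a median of 2.42 naive edges per Mb of body (quartiles 0 and 11.1) and 0 primed edges (quartiles 0 and 5.23), and 45.9% of them had no naive edge. OPCML was above the upper quartile with 13.4, NTM and LSAMP lay between the median and the upper quartile with 4.14 and 3.11, and NEGR1 had 0. None of the 5 genes had a primed edge. The 4 of 300 kb or longer shared this with 66.7% of long genes. For NTM and OPCML it follows from their primed cover of 0%. The edges depended on short LADs and gaps. With LADs less than 50 kb apart joined, OPCML kept 3 naive edges and NTM and LSAMP 0. Without LADs under 50 kb, OPCML kept 1, at the end of its 620 kb LAD, LSAMP kept 1 and NTM all 4.

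By bases that lay in naive LADs only, NTM ranked 3 among all protein-coding genes with 926 kb and OPCML 4 with 705 kb. DAB1, a reelin signalling adaptor gene on chromosome 1, was first with 1435 kb, and WWOX, an oxidoreductase gene on chromosome 16, second with 1043 kb. LSAMP and NEGR1 had 0 kb in naive LADs only, and LSAMP had 10 kb in primed LADs only. This ranking rests on the values that chose the family.

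Genes most like each member were sought among those 0.5 to 2 times as long, by the distance between 4 shares in percentage points: body and surroundings, in each state. For NTM, with 323 candidates, the nearest were WWOX (97.3% of the body in naive, 3.59% in primed), DAB1 (93.1% and 0.644%) and ITPR2, an inositol trisphosphate receptor gene (98.0% and 21.0%), at distances of 8.10, 22.1 and 26.8. For OPCML, with 245 candidates, they were PHACTR1, an actin regulator gene (65.4% and 0%), SLIT3, an axon guidance gene (64.3% and 0%), and LRMDA (56.7% and 5.33%), at 4.60, 7.81 and 11.4. LSAMP was nearest to RSRC1, FGF13 and LUZP2 and NEGR1 to LRRC7, NKAIN2 and CEP128, each within 2.24 and covered at 97.7% or more in both states. For IGLON5 the measure did not single out a gene, since 3900 of 6941 candidates were at 0 in all 4 shares.

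**Figure D3:**
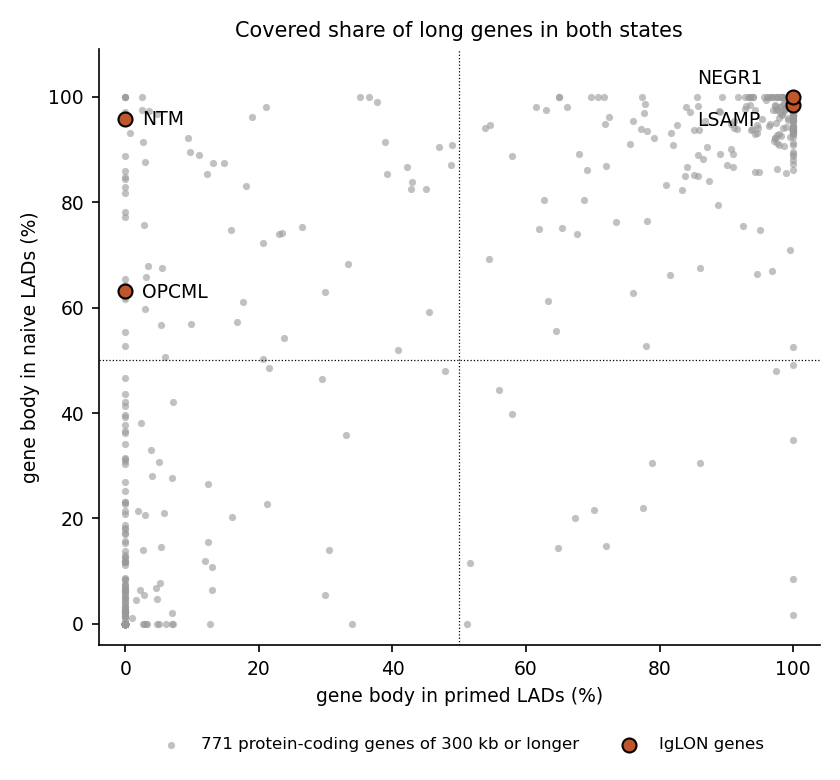
Gene body in primed LADs (x axis, percent) against naive LADs (y axis, percent) for 771 protein-coding genes of 300 kb or longer (grey) and the 4 IgLON genes of that length (orange); dotted lines mark 50%. NTM and OPCML lie on the left edge at 0% in primed, and LSAMP and NEGR1 in the crowded corner near 100% in both.

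NTM and OPCML lay in a long stretch of chromosome 11 in which the primed list had no LAD at all. The last primed LAD of the chromosome was a 70 kb interval (129570001 to 129640000), 1.73 Mb before NTM, and no other followed up to the end of the analysed span (135076197). This primed-free stretch of 5.44 Mb held 30 naive LADs with 2.55 Mb, or 46.9% of its bases. Of these naive bases, 1.63 Mb (64.0%) lay in the bodies of NTM and OPCML. In the list of 5694 primed-free stretches it was second by naive LAD bases, after one of 9.60 Mb on chromosome 18 with 2.66 Mb. It was only 78th by length. The median share of naive LADs over the 310 primed-free stretches of 1 Mb or longer was 2.52%. Of the 21 protein-coding genes wholly inside the stretch, NTM and OPCML were the 2 in naive LADs, and 17 were covered at 0% in naive. The others were TMEM45B (22.6%) and ADAMTS15 (23.7%), both at the proximal end. JAM3, a junctional adhesion gene, and B3GAT1, which makes the HNK-1 carbohydrate carried by neural adhesion molecules, lay distal to OPCML at 0%. This stretch was described after its values were seen. Since 64.0% of its naive bases lay in the bodies of NTM and OPCML, its rank largely restates the values that chose the family.

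With LADs less than 50 kb apart joined in both lists, the naive LADs over NTM and the 3′ part of OPCML became a single domain of 2.15 Mb (130920001 to 133070000), across 8 gaps. It was then the second longest stretch in naive LADs only, after one of 2.17 Mb on chromosome 6. Most of it lies in the bodies of NTM and OPCML, so this rank largely restates the values that chose the family. The joined domain begins just beyond SNX19 and ends inside OPCML, about 40 kb past the 620 kb LAD.

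**Figure D4:**
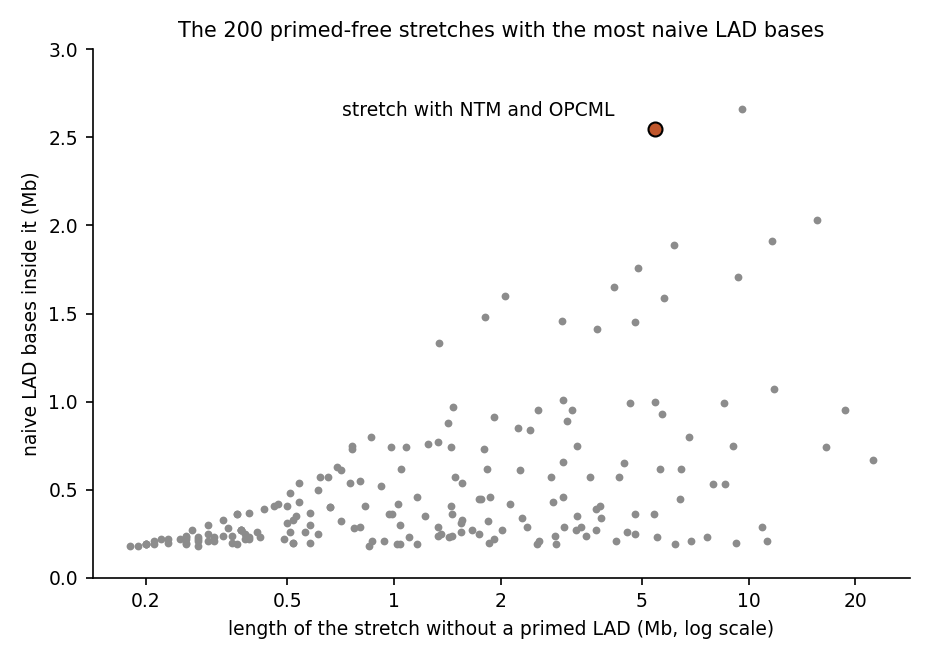
Length of stretches without a primed LAD (x axis, Mb, log scale) against the naive LAD bases inside them (y axis, Mb), for the 200 stretches with the most naive LAD bases. The stretch with NTM and OPCML (orange) holds 2.55 Mb in a length of 5.44 Mb, next to the 2.66 Mb of the highest one.

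A list of 36 other adhesion genes of the immunoglobulin superfamily was also taken (contactins, NCAM and L1 families, CADM and nectin genes and others). Not all of them are mainly neural. Of the 36, 2 were in naive LADs only, 1 showed the reverse, 13 were in LADs of both and 20 of neither. Over all protein-coding genes, these shares were 3.44%, 1.89%, 15.4% and 79.3%. The 36 genes had a median length of 229 kb. Of the 16 that are 300 kb or longer, 2 were in naive LADs only, none (0) showed the reverse, 9 were in LADs of both and 5 of neither (9.6%, 2.08%, 50.8% and 37.5% of all long genes). The median covered share of the 36 was 6.58% in naive and 0% in primed, against 0% in both states over all protein-coding genes. NCAM1, the neural cell adhesion molecule gene on chromosome 11 (317 kb), had 84.7% of its body in naive and 0% in primed LADs. KIRREL3, a synaptic adhesion gene on chromosome 11 (580 kb), was covered at 67.8% and 3.45%. CADM3, a nectin-like gene on chromosome 1 (31.7 kb), went the other way, at 31.5% and 89.5%. NCAM1 and KIRREL3 kept their call under the 5 settings that joined or filtered LADs, and CADM3 under 0 of them.

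Of 10 genes that attach, remodel or release GPI-anchored proteins, the same 2 were in LADs of both states. These were PIGK, of the GPI transamidase (100% in naive, 92.3% in primed), and PGAP1, which remodels the anchor (100% and 71.5%). The other 8, among them the protease gene ADAM10, were in LADs of neither. These counts lay near the shares over all protein-coding genes, 15.4% in both and 79.3% in neither.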

How the data were processed

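Per the submitters' processing notes, the tools named were BWA, SAMtools 1.10 and SICER and the build hg38. Thresholds, and how 3 LMNB1 and 3 Dam-only libraries became 1 list, were not given in the sources used here. Both deposited lists, named simple while the labels name final ones, give chromosome, start and end in multiples of 10 kb and no other value, with 9178 naive LADs covering 1438 Mb and 5671 primed LADs covering 1319 Mb. Depth is unknown: an uncalled window may lie away from the lamina or have too few mappable reads or GATC sites.

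Covered shares, edges and surroundings were computed from the intervals (pandas 2.3.3, numpy 2.4.6 and SciPy 1.17.1 in Python 3.11.15, figures with matplotlib 3.10.9). Covered shares and calls were checked on simulated data, and edges and surroundings only on a small made-up set of intervals. Gene bodies and promoters came from RefSeq (GRCh38.p14), for 22 autosomes and X. Coordinates are 1-based. All 51 genes of the lists matched by symbol. Members and lists were chosen with earlier results of these data known. Named are all members, their protein-coding neighbours within 500 kb (those of IGLON5 as a group), the 3 most alike genes of 0.5 to 2 times the length, adhesion genes in LADs of 1 state and GPI genes in LADs of either; other genes were named after their values were seen. Alternatives joined or filtered LADs, changed the 50% limit and changed the surroundings.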

Additional observations from a re-analysis of the deposited data

How the results depend on the processing

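All 5 members kept their call under the 5 settings that joined or filtered LADs. Joining LADs less than 50 kb apart, less than 100 kb apart, or less than 50 kb apart before leaving out those under 100 kb raised the naive share of OPCML to 72.9%, of NTM to 100% and of LSAMP to 100% in each case, since their gaps were filled. Leaving out LADs under 50 or 100 kb lowered OPCML to 55.0%. With at least 90% of the body required, 1 member was in naive LADs only (NTM) and 2 in neither, as OPCML fell below the limit; with 25% no member changed. Around NTM the naive share was 70.7% with 1 Mb taken on each side in place of 500 kb. The primed share of OPCML and NTM was 0% under each setting, but no setting could have changed it. The nearest primed LAD was 2.77 Mb from OPCML and 1.73 Mb from NTM, beyond the reach of joining. Of the 36 adhesion genes, 2 to 3 were in naive LADs only over the 5 settings; GPI calls moved for PGAP1 and GPLD1. No paired analysis was possible because each list merges its state's libraries. For the same reason no replicate could be left out. The 10 kb windows and the unknown depth limit edges and gaps to single windows.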

Other observations

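NTM and OPCML share the distal part of chromosome 11 with other long genes that differed in the same direction, a pattern noted after the values were seen. Of 35 protein-coding genes of 300 kb or longer on this chromosome, 6 (17.1%) were in naive LADs only and 0 showed the reverse, against 9.6% and 2.08% of the 771 such genes in the genome. The 26 genes up to GUCY1A2, a guanylate cyclase subunit gene (106674019 to 107018476), comprised 1 in naive LADs only, 17 in both and 8 in neither. The 9 genes beyond it comprised 5 in naive LADs only, 0 in both and 4 in neither. These 5 included NCAM1, KIRREL3, NTM and OPCML. NTM and OPCML were chosen because they lay in naive LADs only, and they are part of both the 6 and the 5. Both counts therefore partly restate that choice and lend it no support. Of the 4 in neither, the adhesion gene CADM1 had 18.1% in naive and 0% in primed LADs, and DSCAML1, another adhesion gene, 0% in both.

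In steps of 10 Mb along chromosome 11, the naive and primed LAD shares were 92.8% and 94.6% from 100 to 110 Mb, 28.4% and 15.1% in the next step, 41.0% and 25.7% in the one after and 47.7% and 0% in the last 5.08 Mb, which holds NTM and OPCML. The difference of 47.7 points in that last step was the largest of the 14 steps, and the others ran from -5.30 to 17.8 points. That step is shorter than the others, and 1.63 Mb of its naive LAD bases lay in the bodies of NTM and OPCML. Its rank therefore largely restates the values that chose the family. Of all protein-coding genes of chromosome 11, 4.77% were in naive LADs only, which ranked 9 of the 23 chromosomes.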
